A study of Mus musculus with 8 samples.

Results

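Glycolysis splits glucose into pyruvate, which is either turned into lactate and carried out of the cell or taken into mitochondria. A set of 34 mouse genes for glucose uptake, the glycolytic steps, lactate exchange and the entry of pyruvate into mitochondria was followed here. Each gene was found by its symbol among the 56691 genes of the deposited table, and all 34 passed the filter on low counts that left 19912 genes. Dopamine neurons of the midbrain lie in the ventral tegmental area (VTA), where neurons and glia use different isoforms of several of these enzymes. Enolase 2 and the transporter Slc2a3 are forms known from neurons, and Slc2a1 and Slc16a1 are known from glia or vessels. Aldolase A was placed here with the neuronal forms. Aldolase C, of astrocytes and some neurons, and enolase 1, the general form, were placed with the glial ones. These placements are broad. Pyruvate dehydrogenase commits pyruvate to mitochondrial oxidation, and its kinases switch it off.

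Ribosome-associated messenger RNA was sequenced from the VTA of males that carried either Ogt flox+/Y or, as the other genotype, Ogt flox-/Y. Animals of both kinds were given an adeno-associated virus with Cre recombinase under the tyrosine hydroxylase (TH) promoter, and another with a Cre-dependent, HA-tagged ribosomal fusion (NBL10) that marks ribosomes of cells with Cre. The 4 flox+/Y libraries (replicates 2 to 5) are called knockdown and the 4 flox-/Y libraries (replicates 3 to 6) control. Ogt encodes O-GlcNAc transferase, which attaches a sugar to proteins, and the comparison asks which enriched messages differ when it is reduced. The age of the mice, and whether each library came from a separate animal, are not given in the sources used here. The p-values therefore measure the spread among these libraries, which may be technical.

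Libraries held 49802305 to 147747191 reads, so 3 reads, the floor used for counting error, correspond to 0.0203 to 0.0602 CPM. CPM divide the reads of a gene by the total of its library, and all levels are CPM scaled by trimmed mean of M values. Ogt itself (chromosome X, 100683666 to 100727957, GRCm39) had 108.3 to 159.4 CPM in the controls and 35.99 to 74.43 in the knockdown libraries, without overlap (edgeR adjusted p = 0.00243). Summed markers of neurons were at 7338 to 8121 CPM in the controls and 2823 to 3360 in the knockdown libraries, and those of dopamine neurons at 1503 to 3402 and 458.3 to 719. Summed astrocyte markers were at 1369 to 6505 against 11310 to 16860 CPM, oligodendrocyte markers at 1080 to 1667 against 1744 to 4296, and microglial markers at 28.67 to 48.52 against 53.73 to 153.5. Gfap, named after its values were seen, held much of the astrocyte sum in the knockdown libraries. It was at 236.9 to 1860 CPM in the controls and 5372 to 8401 CPM in the knockdown libraries. None of the markers was at 0 in any library. Control replicate 3 stood apart from the other controls, with 1180 CPM of endothelial markers against 29.54 to 35.58 and 564.6 CPM of pericyte and vascular muscle markers against 20.41 to 26.81. In the knockdown libraries these sums were 45.54 to 71.73 and 35.52 to 49.59 CPM, below control replicate 3 and above each of the other controls.

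Of the 34 genes, 14 fell and 3 rose in the knockdown libraries, and 17 did not pass the test (edgeR quasi-likelihood test, Benjamini-Hochberg adjustment over all genes, threshold 0.05). The 14 that fell are 41.2% of the genes, where 15.1% of all genes tested fell. The 3 that rose are 8.82%, where 13.4% of all genes rose, and the 50% that changed stand beside 28.5% of all genes. Under a stricter filter (at least 1 CPM in 4 libraries), 5577 of 15009 genes changed and 2898 fell. These are larger shares of all genes, while the counts for the 34 genes stayed at 14 and 3. For 20 of the 34 genes (58.8%) every library of one group lay above every library of the other, against 35.1% of all genes. The median log2 fold change (knockdown over control) was -0.43 over the 34 genes and 0.00 over all genes. The 14 that fell lie mostly along the main path from glucose-6-phosphate to pyruvate and on to pyruvate dehydrogenase, and the 3 that rose are Slc16a1, Pdk4 and Hk2.

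Together the 34 genes took 1.95%, 1.67%, 1.77% and 1.80% of the reads in control replicates 3 to 6, and 1.10%, 1.03%, 1.28% and 1.36% in knockdown replicates 2 to 5. The 15 enzymes from hexokinase to pyruvate kinase took 1.54% ± 0.0975 of the reads in the controls (SD, n = 4) and 0.979% ± 0.149 in the knockdown libraries (SD, n = 4). Every knockdown library lay below every control library in the share of the 34 genes. Neuronal marker sums were lower in the same libraries, and their part in this difference was not tested. The libraries hold RNA enriched with tagged ribosomes from tissue. Fewer cells of a type, less RNA per cell and a different degree of enrichment cannot be told apart in them.

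**Figure D1:**
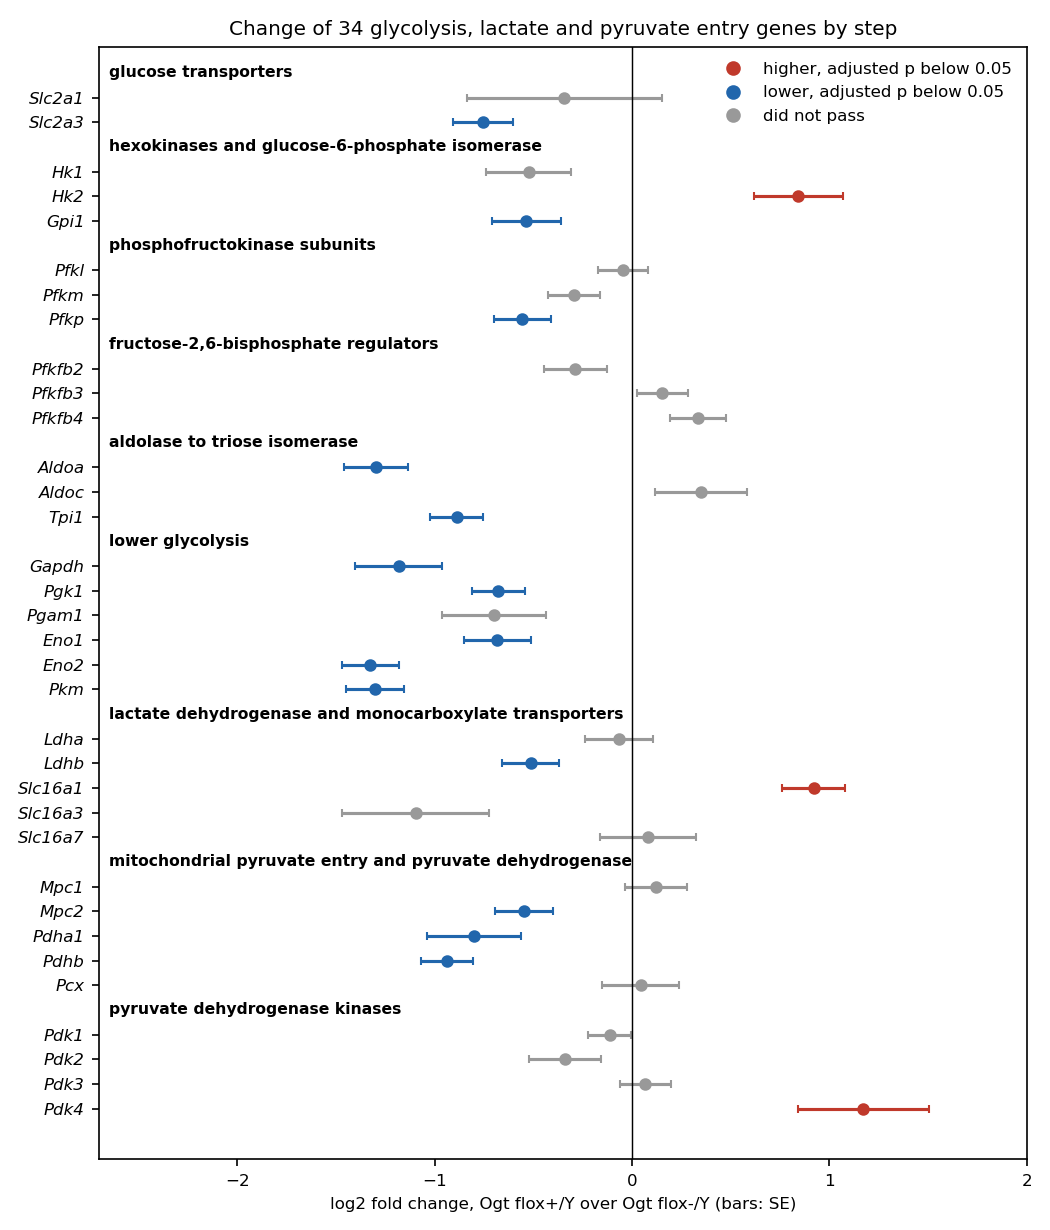
Log2 fold change of each of the 34 genes, Ogt flox+/Y over Ogt flox-/Y, grouped by step along the pathway. Points are edgeR estimates and bars their standard errors, with blue for genes that fell, red for genes that rose and grey for genes that did not pass. The steps from aldolase to pyruvate kinase hold the lowest called values, down to -1.33 for Eno2, and Pdk4 the highest, 1.17.

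**Figure D2:**
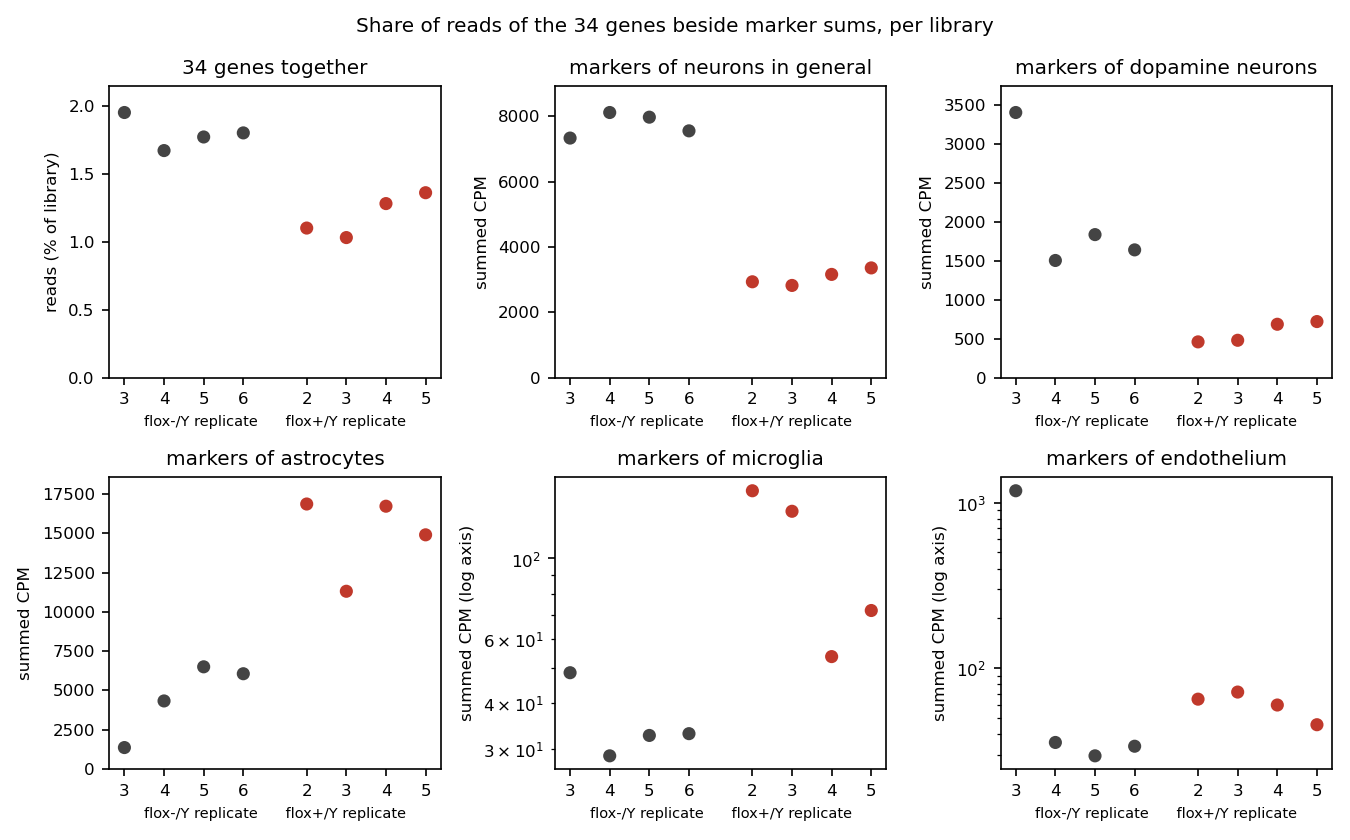
Share of each library's reads taken by the 34 genes (percent) and summed CPM of the markers of 5 cell types, 1 point per library, controls in grey and knockdown libraries in red. The microglial and endothelial panels have log axes. Control replicate 3 has the lowest astrocyte sum (1369 CPM) and the highest endothelial sum (1180 CPM) of all libraries.

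Glucose enters brain cells through the transporters encoded by Slc2a1, known from the vessel wall and astrocytes, and Slc2a3, known from neurons. Slc2a3 had 179.1, 133.2, 132.7 and 140.3 CPM in control replicates 3 to 6 and 81.14, 70.77, 100.8 and 94.3 CPM in knockdown replicates 2 to 5. Every knockdown library was below every control library, and Slc2a3 fell 1.69-fold (log2 -0.75, SE 0.15, edgeR adjusted p = 0.00573).

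Slc2a1 had 194.3, 40.69, 48.52 and 44.1 CPM in the controls and 70.68, 45.09, 77.94 and 64.43 CPM in the knockdown libraries. Control replicate 3, the library with 1180 CPM of endothelial markers, was far above the next library, and the other 7 lay between 40.69 and 77.94 CPM. With all libraries the log2 fold change was -0.34 (SE 0.49) and did not pass (edgeR adjusted p = 0.643). Without control replicate 3 its sign turned, and Slc2a1 rose 1.45-fold (edgeR adjusted p = 0.0393). Without both libraries numbered 3 it rose 1.60-fold (edgeR adjusted p = 0.000169). The direction for Slc2a1 is therefore set by 1 library. Endothelial marker sums were likewise higher in each knockdown library than in the other 3 controls, and their part in the Slc2a1 values was not tested.

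Hexokinase traps glucose in the cell as glucose-6-phosphate, and glucose-6-phosphate isomerase converts it to the fructose form. Hk1, the main hexokinase of the brain, had 434.2 to 596.2 CPM in the controls and 338.6, 204.6, 401.4 and 400.9 CPM in the knockdown libraries. The groups did not overlap, but the difference (log2 -0.52, SE 0.21) did not pass (edgeR adjusted p = 0.0966). Hk2, the insulin-responsive form of muscle and fat, had only 1.895, 2.422, 1.884 and 2.256 CPM in the controls and 4.521, 3.783, 3.625 and 3.229 CPM in the knockdown libraries. All knockdown libraries were higher, and Hk2 rose 1.79-fold (log2 0.84, SE 0.23, edgeR adjusted p = 0.0206). Hk2 no longer passed when control replicate 5 or 6 was left out (adjusted p = 0.0666 and 0.0553), or knockdown replicate 2 or 4 (0.0651 and 0.0532). Per kilobase of exon, Hk2 remained a small part of the hexokinase message, with 0.636% ± 0.141 of the summed Hk1 and Hk2 level in the controls and 1.71% ± 0.656 in the knockdown libraries (SD, n = 4 each).

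Gpi1, the isomerase, had 1253, 803.4, 832.3 and 848.8 CPM in the controls and 556.7, 609, 676 and 737.4 CPM in the knockdown libraries. It fell 1.45-fold without overlap of the groups, just inside the threshold (edgeR adjusted p = 0.044). Leaving out any 1 library other than knockdown replicate 5 took it past the threshold, with edgeR adjusted p between 0.0512 (without control replicate 4) and 0.0962 (without knockdown replicate 2).

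Phosphofructokinase, which commits sugar to glycolysis, is built from muscle (Pfkm), liver (Pfkl) and platelet (Pfkp) type subunits. Pfkp had 367.9, 272.8, 288.6 and 291.9 CPM in the controls and 203.9, 172.2, 228.2 and 226.4 CPM in the knockdown libraries. It fell 1.47-fold without overlap (edgeR adjusted p = 0.0178). Pfkm, the most abundant subunit per kilobase, had 559.9 to 627.6 CPM in the controls and 402.5 to 548.7 CPM in the knockdown libraries. These did not overlap either, yet the difference did not pass (log2 -0.30, SE 0.13, edgeR adjusted p = 0.122). Pfkl had 153.5 to 201.9 against 150.6 to 182.7 CPM, a log2 difference of -0.05 with an SE of 0.12.

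The bifunctional enzymes of the Pfkfb family make or remove the activator of phosphofructokinase, fructose-2,6-bisphosphate. None of the 3 measured passed the test. Pfkfb4 had 11.13 to 11.83 CPM in the controls and 16.07, 12.16, 15.11 and 14.47 CPM in the knockdown libraries, without overlap (log2 0.34, edgeR adjusted p = 0.106). Without knockdown replicate 3, the lowest of its group, Pfkfb4 rose 1.33-fold (edgeR adjusted p = 0.0307), while without any other single library it did not pass (0.0798 to 0.256). Pfkfb3, the form known from astrocytes, had 56.55 to 70.99 against 59.22 to 78.05 CPM, and Pfkfb2 14.73 to 17.68 against 10.78 to 15.98 CPM.

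Aldolase cuts the 6-carbon sugar into 2 triose phosphates, which triose phosphate isomerase (Tpi1) interconverts. Aldoa (ENSMUSG00000030695.17, chromosome 7, 126394406 to 126399923, GRCm39) had 2547, 1952, 2022 and 2112 CPM in the controls and 720.4, 809.3, 921.7 and 1061 CPM in the knockdown libraries. The lowest control was well above the highest knockdown library, and Aldoa fell 2.46-fold (log2 -1.30, SE 0.16, edgeR adjusted p = 0.000634). Aldoc, the aldolase of astrocytes and some neurons, had 828.4, 1521, 1830 and 1877 CPM in the controls and 1790, 1869, 2110 and 1961 CPM in the knockdown libraries. The groups overlapped, with control replicate 3 far below the rest, and the difference did not pass (log2 0.35, SE 0.23, edgeR adjusted p = 0.29). Tpi1 had 975.9 to 1081 CPM in the controls and 456.2 to 631.1 CPM in the knockdown libraries and fell 1.85-fold (edgeR adjusted p = 0.00143).

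The aldolase message thus differed in makeup. Of the level of both genes per kilobase of exon, a measure that does not depend on the scaling between libraries, Aldoc made up 22.5%, 41.0%, 44.7% and 44.2% in the controls. In the knockdown libraries it made up 68.9%, 67.3%, 67.1% and 62.3%. Aldoa was the larger part in every control and Aldoc in every knockdown library. The mean share of Aldoc was 38.1% ± 10.5 in the controls and 66.4% ± 2.88 in the knockdown libraries (SD, n = 4 each), and 43.3% ± 2.00 in the controls without replicate 3 (SD, n = 3). Astrocyte marker sums differed between the groups in the same direction as this share, and their part in it was not tested. The sums were 1369 CPM in control replicate 3, at most 6505 CPM in the other controls and at least 11310 CPM in the knockdown libraries. Sums and shares had the same order among the controls but not among the knockdown libraries. There replicate 3 had the lowest sum (11310 CPM) and replicate 5 (14900 CPM) the lowest share. Much of the sums in the knockdown libraries was Gfap.

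**Figure D3:**
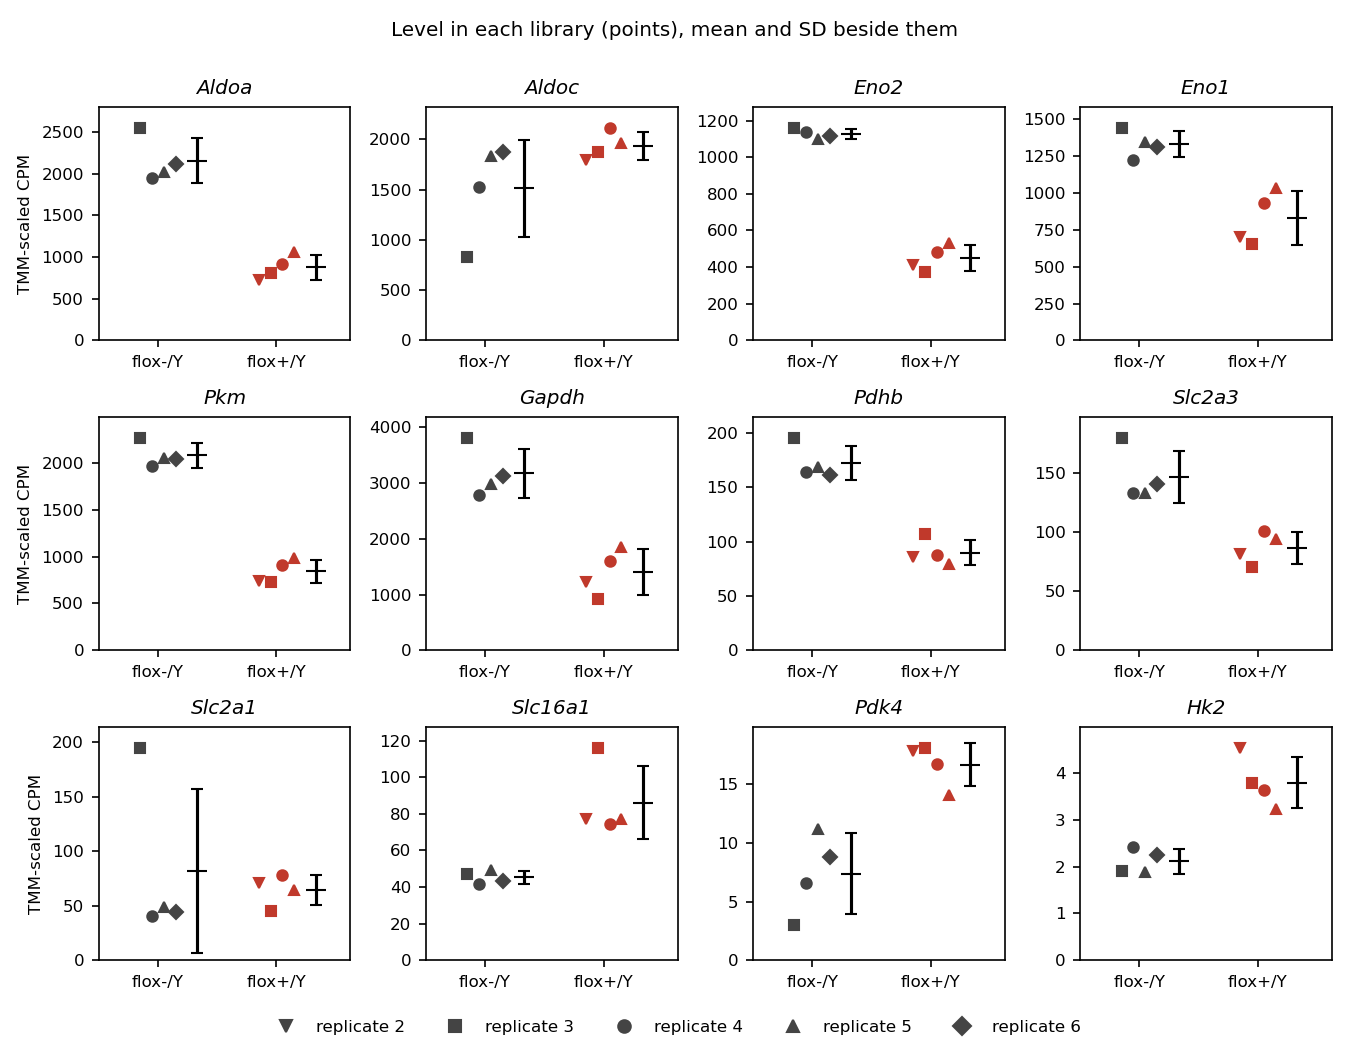
CPM of 12 of the genes in each library, with Ogt flox-/Y libraries in grey and flox+/Y libraries in red, 1 symbol shape per replicate number. Bars beside the points are means and SDs. For Slc2a1 the control mean is carried by replicate 3 at 194.3 CPM, while for Aldoa, Eno2 and Pkm all 4 controls lie above all 4 knockdown libraries.

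The lower steps of glycolysis recover the energy of the pathway, and 5 of their 6 genes fell (83.3%, against 15.1% of all genes). Gapdh, the dehydrogenase often used as a reference gene, had 3804, 2787, 2985 and 3123 CPM in the controls and 1223, 920.8, 1595 and 1856 CPM in the knockdown libraries. It fell 2.27-fold without overlap (edgeR adjusted p = 0.00383). Pgk1, the first enzyme of the pathway to make ATP, had 730.1 to 812 against 390.5 to 540.1 CPM and fell 1.60-fold (edgeR adjusted p = 0.00527). For Gapdh, Pgk1, Pgam1 and Eno1, 22.6%, 52.8%, 34.9% and 23.0% of all 75-base stretches of their exons also occur at other loci, mostly pseudogenes. For Ldhb this share is 12.6%. Reads that lie wholly in such stretches may not have been counted, and how many were lost was not measured, so the levels of these genes may be too low and their changes are less certain.

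Pgam1, the phosphoglycerate mutase, had 204.6, 354.3, 361.8 and 377 CPM in the controls and 194, 114.7, 237.2 and 253.7 CPM in the knockdown libraries. The libraries numbered 3 were the lowest of both groups, the groups overlapped through control replicate 3, and the difference did not pass (log2 -0.70, SE 0.27, edgeR adjusted p = 0.0738). Without control replicate 3, Pgam1 fell 1.83-fold (edgeR adjusted p = 0.0152), and without both libraries numbered 3 it fell 1.60-fold (edgeR adjusted p = 0.00016). Without any other single library Pgam1 did not pass (edgeR adjusted p = 0.0669 to 0.165).

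Enolase makes phosphoenolpyruvate, and Eno2 is the form used as a protein marker of neurons. Eno2 (ENSMUSG00000004267.17, chromosome 6, 124737016 to 124746636, GRCm39) had 1158, 1136, 1098 and 1113 CPM in the controls and 409.1, 374.3, 481.7 and 533.1 CPM in the knockdown libraries. The controls lay close together and far above the knockdown libraries, and Eno2 fell 2.51-fold, the lowest called log2 value of the 34 genes (-1.33, SE 0.14, edgeR adjusted p = 0.000356). Eno1, the general form, had 1438, 1220, 1348 and 1314 CPM in the controls and 702.4, 651.1, 928 and 1032 CPM in the knockdown libraries. It fell too, by 1.61-fold (edgeR adjusted p = 0.0143). Per kilobase, Eno1 made up 50.8% ± 1.64 of the enolase message in the controls and 61.5% ± 1.53 in the knockdown libraries (SD, n = 4 each), with ranges of 48.4% to 52.1% and 60.0% to 62.9% that do not overlap.

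Pkm, the pyruvate kinase of brain, had 2260, 1959, 2050 and 2035 CPM in the controls and 742, 733.2, 912.1 and 981.2 CPM in the knockdown libraries. All knockdown libraries were far below the lowest control, and Pkm (ENSMUSG00000032294.18, chromosome 9, 59563651 to 59586658, GRCm39) fell 2.47-fold (log2 -1.30, SE 0.15, edgeR adjusted p = 0.00043). The table has 1 count for the gene, so its M1 and M2 splice forms were not told apart. Another gene overlaps 15.34% of the Pkm exon bases, and 7.13% of its 75-base stretches occur at other loci.

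Lactate dehydrogenase interconverts pyruvate and lactate. Its B subunit (Ldhb) favours the use of lactate, and its A subunit (Ldha) its production. Ldhb had 1385, 1101, 1224 and 1174 CPM in the controls and 698.3, 955.8, 826.3 and 939.4 CPM in the knockdown libraries. It fell 1.43-fold without overlap (edgeR adjusted p = 0.0259). Ldhb no longer passed when control replicate 5 or 6 was left out (adjusted p = 0.0647 and 0.0618), or knockdown replicate 2 or 4 (0.0513 and 0.0607). Ldha had 218.2, 232.5, 222.8 and 256 CPM in the controls and 160.1, 285.5, 208.7 and 233.4 CPM in the knockdown libraries. Its groups overlapped fully, at a log2 difference of -0.07 with an SE of 0.17. Ldhb remained the main form, at 91.7% ± 1.11 of the lactate dehydrogenase level per kilobase in the controls and 89.1% ± 1.10 in the knockdown libraries (SD, n = 4 each).

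Monocarboxylate transporters carry lactate and pyruvate across the cell membrane. Slc16a1 (ENSMUSG00000032902.2, chromosome 3, 104545984 to 104565778, GRCm39), known from vessels and oligodendrocytes, had 47.34, 41.61, 49.48 and 43.36 CPM in the controls. It had 77.06, 115.8, 74.2 and 77.05 CPM in the knockdown libraries, each above every control, and rose 1.89-fold (log2 0.92, SE 0.16, edgeR adjusted p = 0.00273). Oligodendrocyte marker sums were higher in each knockdown library (1744 to 4296 CPM) than in each control (1080 to 1667 CPM). Endothelial sums were higher there (45.54 to 71.73 CPM) than in control replicates 4 to 6 (29.54 to 35.58 CPM) but not than in control replicate 3 (1180 CPM), whose Slc16a1 level lay between those of the other controls. The part of these cells in the rise of Slc16a1 was not tested. Slc16a3, the transporter of lactate-exporting cells, had 7.038, 2.631, 3.173 and 3.07 CPM in the controls and 2.25, 1.484, 1.279 and 2.416 CPM in the knockdown libraries. The groups stood apart, but the difference just missed the threshold (log2 -1.10, SE 0.37, edgeR adjusted p = 0.051). Without control replicate 4 it passed (2.41-fold lower, edgeR adjusted p = 0.0478). Without control replicate 3, the highest library, Slc16a3 was 1.59-fold lower and did not pass (edgeR adjusted p = 0.0854), nor did it without both libraries numbered 3 (1.49-fold lower, 0.0936) or without any other single library (0.0603 to 0.117). Slc16a7, the neuronal form, had 6.96 to 8.892 against 5.05 to 11.41 CPM and did not pass.

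Slc16a1 was the main one of the 3 transporters in each library, at 83.8% to 89.4% of their summed level per kilobase in the controls and 92.6% to 97.4% in the knockdown libraries. Slc16a3 made up 6.26% ± 2.75 in the controls and 1.77% ± 0.680 in the knockdown libraries (SD, n = 4 each). Bsg, the chaperone that brings these transporters to the membrane, is named here after its values were seen. It had 720.4 to 1276 CPM in the controls and 549.6 to 758.5 CPM in the knockdown libraries and did not pass (log2 -0.43, SE 0.20, edgeR adjusted p = 0.134).

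**Figure D4:**
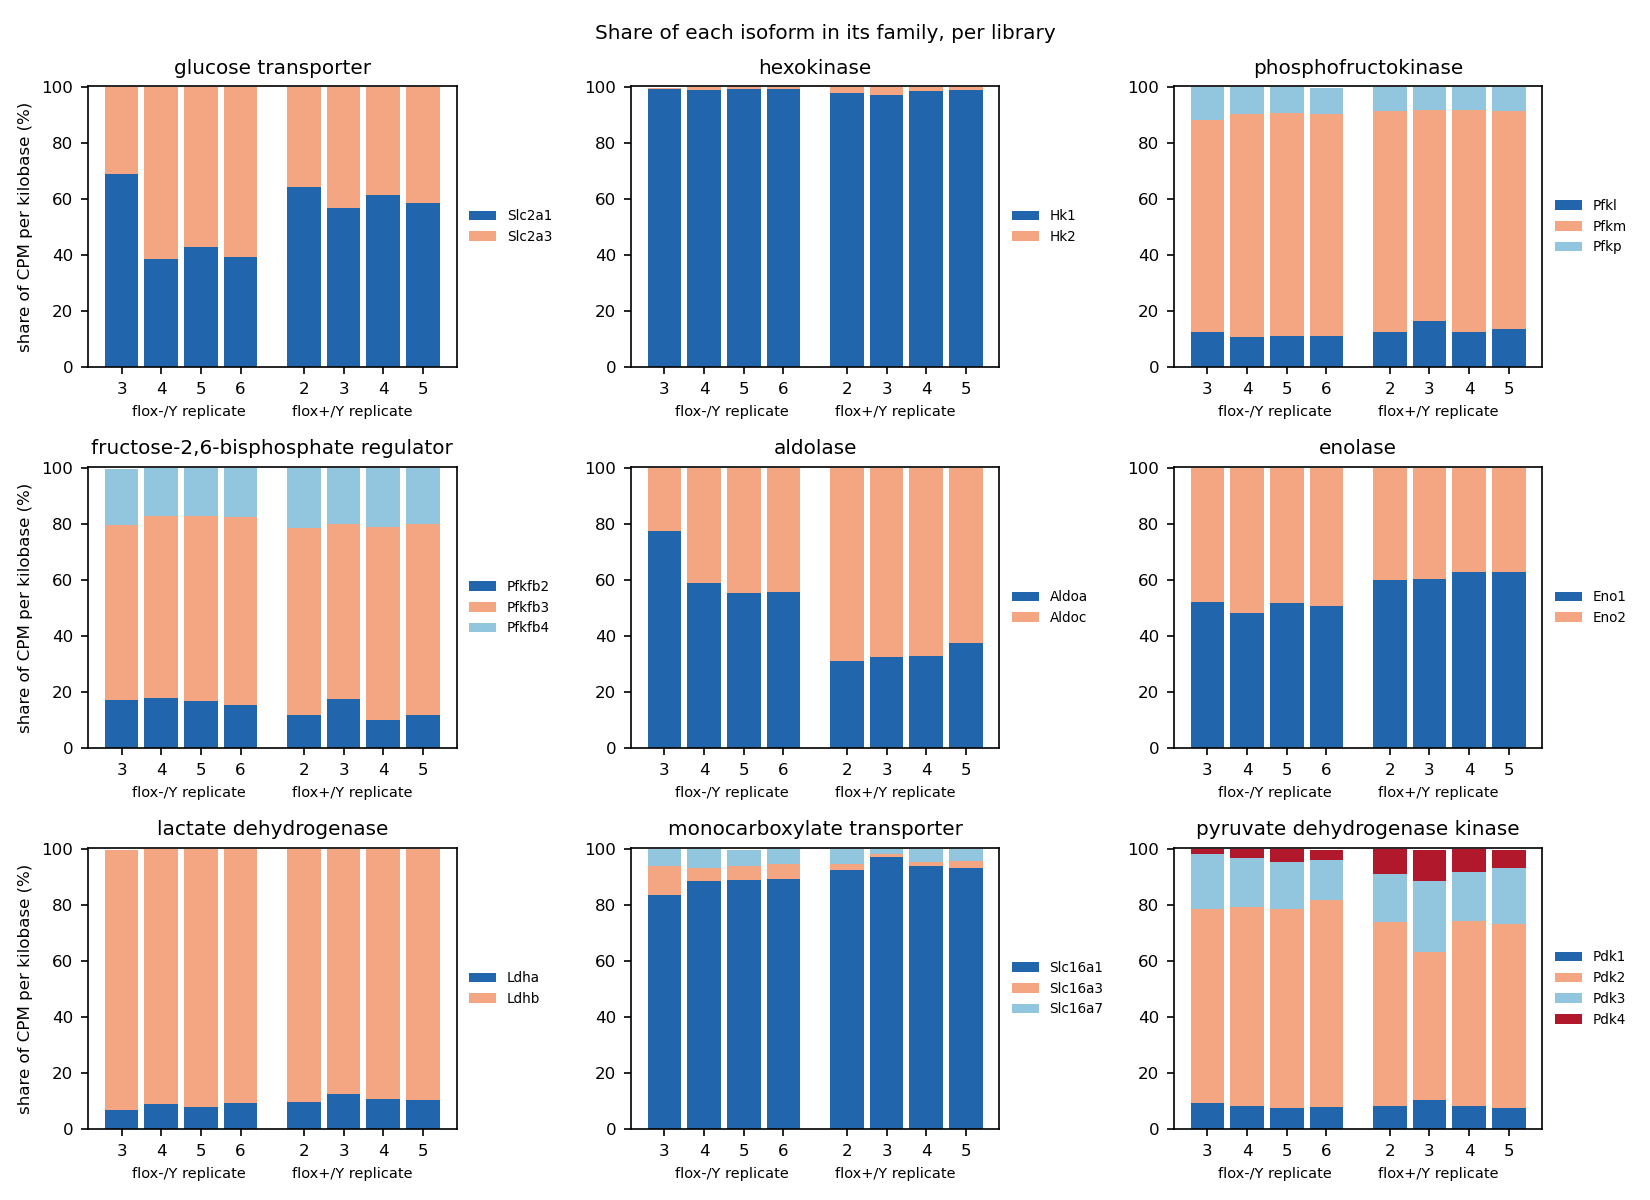
Share of each isoform in the summed CPM per kilobase of exon of its family, in percent, 1 bar per library with the replicate number below. Aldoc goes from 22.5% to 44.7% in the Ogt flox-/Y libraries to 62.3% to 68.9% in the flox+/Y libraries, and Eno1 from 48.4% to 52.1% to 60.0% to 62.9%.

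The mitochondrial pyruvate carrier is made of the subunits Mpc1 and Mpc2. Mpc2 had 171.9, 181.5, 190.9 and 173.2 CPM in the controls and 99.71, 153.1, 109 and 129 CPM in the knockdown libraries. It fell 1.46-fold without overlap (edgeR adjusted p = 0.0198), but not when control replicate 5 or knockdown replicate 4 was left out (adjusted p = 0.0555 and 0.0537). Mpc1, its partner, had 33.27 to 54.84 against 45.41 to 54.81 CPM and did not pass (log2 0.12, SE 0.16). The difference between the changes of these subunits was not tested, and 23.3% of the Mpc1 exon bases overlap another gene. Such overlap covers 19.52% of the exon bases of Pfkfb2, 16.15% of Pdha1, 15.34% of Pkm and 10.75% of Pfkm, and less in the other genes.

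Pyruvate dehydrogenase turns pyruvate into acetyl-CoA, and its catalytic component is made of the proteins of Pdha1 and Pdhb. Pdhb (ENSMUSG00000021748.10, chromosome 14, 14296748 to 14303777, GRCm39) had 195.2, 164.1, 168.7 and 161.4 CPM in the controls and 85.69, 106.9, 87.62 and 79.82 CPM in the knockdown libraries. It fell 1.91-fold without overlap (log2 -0.94, SE 0.13, edgeR adjusted p = 0.000988). Pdha1 had 109.6, 176.3, 179.3 and 178 CPM in the controls and 94.85, 54.59, 113.2 and 106.9 CPM in the knockdown libraries. The libraries numbered 3 were again the lowest of both groups, and control replicate 3 lay among the knockdown libraries. Pdha1 fell 1.74-fold (edgeR adjusted p = 0.0312), but did not pass when control replicate 4, 5 or 6 was left out (adjusted p = 0.0714, 0.075 and 0.079), or knockdown replicate 2 (0.069). Pcx, which makes oxaloacetate from pyruvate and is known from astrocytes, had 82.93 to 94.53 against 55.69 to 114.2 CPM and did not pass (log2 0.04, SE 0.20).

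Of the pyruvate dehydrogenase kinases, which inactivate the complex, Pdk4 is the form induced by fasting and fatty acid use. Pdk4 had 2.978, 6.577, 11.13 and 8.813 CPM in the controls and 17.77, 18.03, 16.7 and 14.07 CPM in the knockdown libraries. All knockdown libraries were above all controls, and Pdk4 rose 2.25-fold (log2 1.17, SE 0.33, edgeR adjusted p = 0.0254). Pdk4 no longer passed when control replicate 4 was left out (adjusted p = 0.0739), or knockdown replicate 2, 3 or 4 (0.0691, 0.054 and 0.0581). Pdk2, the most abundant form, had 110.6, 142, 157.6 and 155.1 CPM in the controls and 120.7, 76.42, 124.9 and 125.3 CPM in the knockdown libraries and did not pass (edgeR adjusted p = 0.196). Pdk1 had 37.1 to 41.17 against 34.9 to 38.41 CPM, and Pdk3 24.36 to 30.25 against 25.82 to 30.69 CPM. Per kilobase, Pdk4 made up 3.24% ± 1.22 of the kinase message in the controls and 8.64% ± 1.92 in the knockdown libraries (SD, n = 4 each), while Pdk2 made up 71.4% ± 1.92 and 62.6% ± 6.53.

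Isoforms were also read by an assigned cell type. Of 7 isoforms associated with neurons (Slc2a3, Hk1, Pfkm, Aldoa, Eno2, Ldhb and Slc16a7), 4 fell (57.1%, against 15.1% of all genes), none rose and 3 did not pass, with a median log2 fold change of -0.52. The groups stood apart for 6 of the 7 (85.7%, against 35.1% of all genes). Of 11 genes associated with glia or vessels (Slc2a1, Hk2, Pfkl, Aldoc, Eno1, Ldha, Slc16a1, Slc16a3, Pfkfb3, Pdk4 and Pcx), 3 rose (27.3%, against 13.4% of all genes), 1 fell and 7 did not pass, with a median of 0.04. The groups stood apart for 5 of these 11 (45.5%), 3 of them higher and 2 lower in the knockdown libraries. These assignments are broad, and most of these genes are used by more than 1 cell type. Of the 3 that rose, Hk2 and Pdk4 are described above by muscle and fat and by fasting, not by glia or vessels. The lists were drawn up with earlier results of these data known, so the contrast between them is only a description. Of 10 general neuronal markers 9 fell (median log2 -1.27), and of 11 dopamine neuron markers 10 fell (median log2 -1.76). Of 12 astrocyte markers 5 rose (median log2 1.20), as did 7 of 10 oligodendrocyte markers and 8 of 10 microglial markers. The part of these markers in the isoform values was not tested.

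Levels between genes were compared per kilobase of exon. In the controls Ldhb (778 ± 76.7 CPM per kilobase), Gapdh (768 ± 107) and Aldoa (741 ± 91.9) led and lay within 1 SD of each other (n = 4). This order is uncertain, since sequence shared with other loci covers 12.6%, 22.6% and 0.67% of the 75-base stretches of Ldhb, Gapdh and Aldoa. Aldoc followed at 464 ± 148, Pkm at 415 ± 25.7 and Tpi1 at 374 ± 17.8 CPM per kilobase. In the knockdown libraries Aldoc (592 ± 42.1) and Ldhb (545 ± 76.0) led within 1 SD of the larger spread, ahead of Gapdh (338 ± 99.4) and Aldoa (302 ± 50.5), which also lay within 1 SD of each other. The lowest levels per kilobase in both groups were those of Hk2, Slc16a7 and Slc16a3, all under 1 CPM per kilobase. The level of Slc16a1 per kilobase was 10.3 ± 0.813 in the controls and 19.4 ± 4.50 in the knockdown libraries, still below that of each glycolytic enzyme from aldolase to pyruvate kinase.

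Many glycolytic promoters hold the core of the hypoxia response element, through which hypoxia-inducible factors act, and the study is about the transcription factor STAT3. Promoter windows (250 bases before to 50 after the transcript start, RefSeq, GRCm38.p6) were given for 32 of the 34 genes, 50 windows in all, and were searched on both strands. ACGTG was present in 23 of the 50 windows (46.0%) and in 19.6% of all 32851 windows. GCGTG was in 28 (56.0%) against 32.4%, and the E-box CACGTG, which contains ACGTG, in 7 (14%) against 7.15%. The STAT site TTCNNNGAA was in 2 (4.0%) against 8.3%, those of Aldoc and Pfkm. The 50 windows had a median GC content of 61.5% and 20 CpG dinucleotides, against 52.7% and 7 in all windows, and both hypoxia cores and the E-box hold a CpG.

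By outcome, ACGTG was found in a window of 2 of the 3 genes that rose, 5 of the 13 that fell and have a window, and 12 of the 16 that did not pass. For GCGTG these were 2, 7 and 13 genes. A gene with several windows has more chances of a match, and the share over all genes was known per window only. These counts are therefore no result about the outcomes. Windows of a gene that fell (Pgk1), one that rose (Slc16a1) and one that did not pass (Ldha) are shown, 5′ to 3′ on the strand of the gene, because all of them hold the core. Capitals mark ACGTG or GCGTG on either strand.
Pgk1, chrX:106186850-106187149, plus strand: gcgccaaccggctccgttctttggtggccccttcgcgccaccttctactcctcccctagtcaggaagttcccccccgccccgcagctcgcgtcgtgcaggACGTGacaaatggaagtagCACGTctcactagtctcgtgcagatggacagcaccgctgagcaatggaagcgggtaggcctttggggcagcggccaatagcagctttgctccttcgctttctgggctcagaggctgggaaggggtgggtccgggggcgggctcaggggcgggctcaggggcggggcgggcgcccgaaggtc
Slc16a1, chr3:104638414-104638713, plus strand: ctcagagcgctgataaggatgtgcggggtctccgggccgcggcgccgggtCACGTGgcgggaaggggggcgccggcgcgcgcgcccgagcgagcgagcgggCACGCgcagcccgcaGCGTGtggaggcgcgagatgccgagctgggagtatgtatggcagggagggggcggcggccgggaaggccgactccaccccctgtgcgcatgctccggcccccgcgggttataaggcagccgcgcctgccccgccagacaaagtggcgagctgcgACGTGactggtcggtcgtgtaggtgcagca
Ldha, chr7:46845554-46845853, plus strand: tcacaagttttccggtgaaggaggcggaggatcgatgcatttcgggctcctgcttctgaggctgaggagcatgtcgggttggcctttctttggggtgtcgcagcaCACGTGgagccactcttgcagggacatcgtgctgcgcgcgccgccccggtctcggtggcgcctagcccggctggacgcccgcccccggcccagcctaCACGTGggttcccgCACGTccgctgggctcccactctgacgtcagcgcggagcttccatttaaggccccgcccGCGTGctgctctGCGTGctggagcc
The Pgk1 window holds 2 matches of ACGTG, that of Slc16a1 3 of ACGTG and 2 of GCGTG, and the Ldha window shown 5 and 2. A CACGTG counts as 2 matches of ACGTG. Another Ldha window, not shown, holds 0 of ACGTG and 2 of GCGTG. These 3 windows were chosen because they hold the core, so they cannot show whether matches go with the direction of change. A match is no evidence of binding.

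Of 25 hypoxia factors and common hypoxia targets outside glycolysis, 24 were tested, 5 rose and 3 fell (33.3%, against 28.5% of all genes), with a median log2 fold change of 0.13. Hif1a, the oxygen-regulated factor itself, had 63.48, 174.5, 165.4 and 129.4 CPM in the controls and 443.3, 467.5, 361.6 and 236.4 CPM in the knockdown libraries. It rose 2.83-fold without overlap (edgeR adjusted p = 0.00693). P4ha1, a collagen prolyl hydroxylase, rose 1.87-fold, and Egln1, the oxygen sensor that marks the factor for degradation, 1.52-fold (edgeR adjusted p = 0.00406 and 0.00573). The mitophagy gene Bnip3l fell 1.51-fold (edgeR adjusted p = 0.00894). The other called genes, picked here after their values were seen, were Ddit4 and Hif3a among those that rose and Bnip3 and Arrdc4 among those that fell.

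Downstream of pyruvate dehydrogenase, 9 of 17 genes of the tricarboxylic acid cycle fell (52.9%, against 15.1% of all genes) and 1 rose (5.88%, against 13.4%), with a median log2 fold change of -0.44. Fh1, fumarate hydratase, had 202, 137.4, 142.9 and 147.4 CPM in the controls and 62.24, 65.18, 71.05 and 72.44 CPM in the knockdown libraries and fell 2.32-fold (edgeR adjusted p = 0.000527). Idh3a, the catalytic subunit of isocitrate dehydrogenase, fell 1.78-fold, Ogdh of the oxoglutarate dehydrogenase complex 1.62-fold and Sdha of succinate dehydrogenase 1.47-fold (edgeR adjusted p = 0.00222, 0.00228 and 0.0062). The gene that rose, named after its values were seen, was Idh2, the NADP-dependent isocitrate dehydrogenase of mitochondria. Of the 9 other genes of the pyruvate dehydrogenase complex and its regulation, 3 fell (33.3%, against 15.1% of all genes) and none rose. These were Pdp1, the phosphatase that switches the complex on (1.82-fold, edgeR adjusted p = 0.00191), Dlat, its acetyltransferase (1.48-fold, 0.00767), and Pdhx, which anchors its dihydrolipoamide dehydrogenase. Pdhx fell 1.33-fold (adjusted p = 0.0317), a call lost without each library but control replicate 3 and knockdown replicate 3 (edgeR adjusted p = 0.0672 to 0.0857).

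The shuttles that carry the reducing power of cytosolic NADH into mitochondria had the lowest median of the 8 neighbouring lists, -0.93, and 6 of their 9 genes fell (66.7%, against 15.1% of all genes). Mdh1, the cytosolic malate dehydrogenase, had 1937, 1494, 1480 and 1506 CPM in the controls and 498.8, 789.4, 591.2 and 627.8 CPM in the knockdown libraries. It fell 2.56-fold (edgeR adjusted p = 0.000684). The aspartate aminotransferases Got1 and Got2 fell 2.29-fold and 2.36-fold, and Gpd1l, related to glycerol-3-phosphate dehydrogenase, 1.94-fold (edgeR adjusted p = 0.000356, 0.000427 and 0.000556). These 4 genes had every knockdown library below every control.

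In the pentose phosphate pathway, a side branch, 2 of 8 genes fell (25%, against 15.1% of all genes) and none rose, beside 28.5% of all genes that changed. They were Pgd, its second dehydrogenase (1.63-fold), and the transketolase Tkt (1.60-fold; edgeR adjusted p = 0.00485 and 0.0137). Of 20 glycogen genes 2 rose (10%, against 13.4% of all genes) and 2 fell (10%, against 15.1%), so 20% changed. The groups stood apart for 37.5% of the pentose phosphate genes and 45% of the glycogen genes, against 35.1% of all genes. Phkb and Phka1, regulatory subunits of phosphorylase kinase, rose 1.76-fold and 1.60-fold, and its catalytic subunit Phkg2 fell 1.86-fold (edgeR adjusted p = 0.0138, 0.0144 and 0.0144). The call of Phka1 was lost without knockdown replicate 4 (edgeR adjusted p = 0.0557). Pgm2l1, which makes glucose-1,6-bisphosphate in brain, fell 1.66-fold (edgeR adjusted p = 0.00293).

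Of 31 further glycolysis and glucose transport genes 28 were tested, 4 rose (14.3%, near the 13.4% of all genes) and 7 fell (25%, against 15.1%). Tigar, which lowers fructose-2,6-bisphosphate, had 59.91 to 65.68 CPM in the controls and 23.74 to 30.13 CPM in the knockdown libraries and fell 2.35-fold (edgeR adjusted p = 0.000237). Pgp, a phosphatase that clears side products of glycolysis, fell 1.87-fold, and the transporter Slc2a6 2.79-fold (edgeR adjusted p = 0.000487 and 0.00268). Eno4, a low-abundance enolase known from sperm, had 1.611 to 2.625 CPM in the controls and 5.43 to 6.683 CPM in the knockdown libraries and rose 2.89-fold (edgeR adjusted p = 0.00122). Slc2a9, Slc2a12 and Galm also rose, and Slc2a8, Slc2a13, G6pc3 and Pgam2 also fell, all named after their values were seen.

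Of 17 further lactate and monocarboxylate genes 15 were tested, 4 rose (26.7%, against 13.4% of all genes) and 3 fell (20%, against 15.1%). Slc16a6, a ketone body transporter, had 2.639, 4.948, 5.363 and 5.043 CPM in the controls and 17.78, 15.02, 17.35 and 18.94 CPM in the knockdown libraries. It rose 3.84-fold without overlap (edgeR adjusted p = 0.000524). Slc16a9, a carnitine transporter, rose 2.25-fold (edgeR adjusted p = 0.00783). Emb, a membrane partner of monocarboxylate transporters, fell 1.96-fold, and Slc16a11 2.24-fold (edgeR adjusted p = 0.0016 and 0.0175). Slc16a14 and Slc5a8, which rose, and Slc16a13, which fell, were named after their values were seen. Over all 8 neighbouring lists, 16 of 130 tested genes rose (12.3%, near the 13.4% of all genes) and 35 fell (26.9%, against 15.1%).

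**Figure D5:**
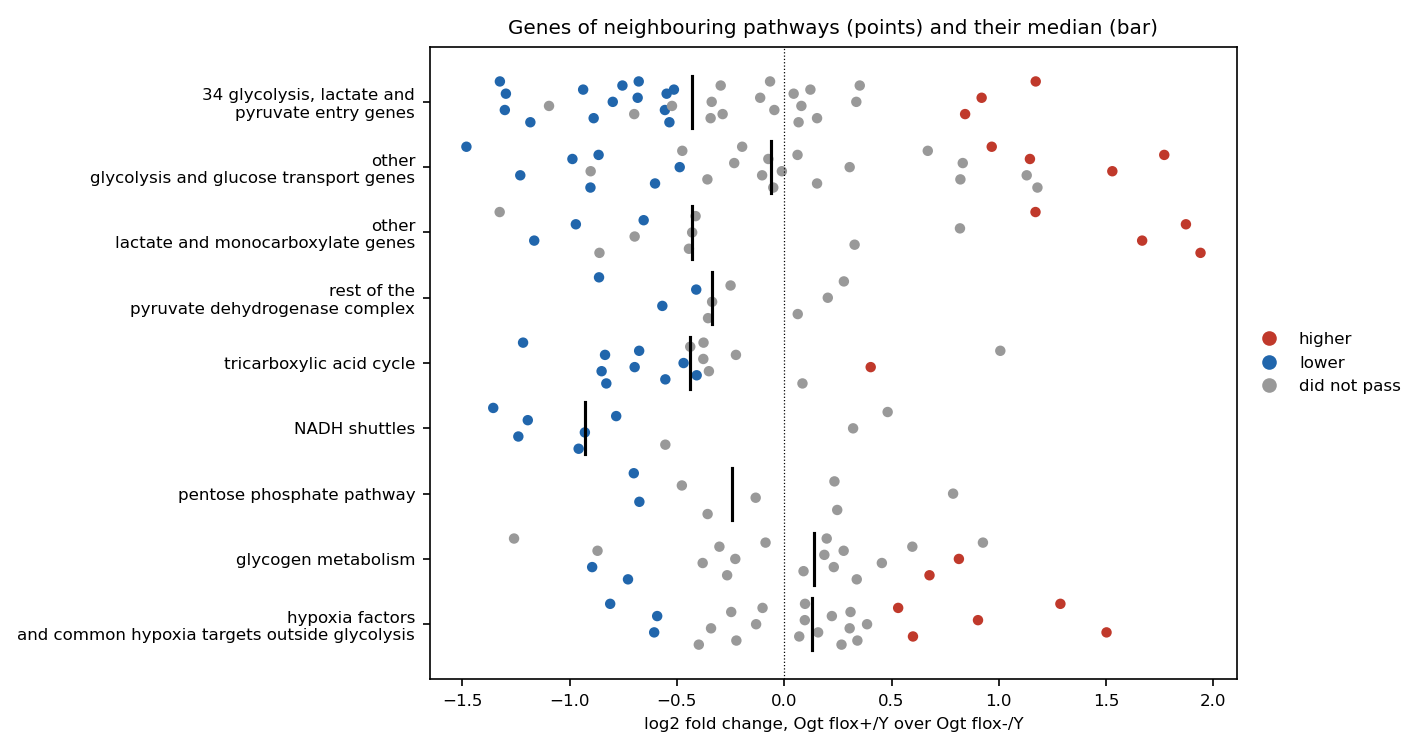
Log2 fold change, Ogt flox+/Y over Ogt flox-/Y, of the 34 genes and of 8 lists from neighbouring pathways. Each point is a gene, red where it rose, blue where it fell and grey where it did not pass, and black bars are medians. The median is -0.93 for the NADH shuttles, -0.44 for the tricarboxylic acid cycle and 0.13 for the hypoxia list.

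The libraries numbered 3 decided several values. Control replicate 3 was the highest or lowest control for 28 of the 34 genes, and knockdown replicate 3 the highest or lowest knockdown library for 25, where each other library was so for 7 to 18. Both were the lowest of their group for 5 genes (Pfkfb3, Pgam1, Mpc1, Pdha1 and Pdk2) and the highest for 3 (Pgk1, Ldhb and Pdhb). Without both of them 17 of the 34 genes fell and 5 rose (64.7%), beside 46.8% of all genes tested in that fit. Of the 17 calls, 11 held without each of the 8 libraries in turn: Slc2a3, Pfkp, Aldoa, Tpi1, Gapdh, Pgk1, Eno1, Eno2, Pkm, Pdhb and Slc16a1. Each of the other 6 (Hk2, Gpi1, Ldhb, Mpc2, Pdha1 and Pdk4) did not pass without one or more single libraries, as given above.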

How the data were processed

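Ribosome-associated RNA of 8 VTA libraries (4 knockdown, 4 control) was read from 1 table that the authors deposited, with unnormalized whole read counts for each gene. Counting used featureCounts 2.0.3 over exons of GENCODE vM30 (GRCm39), without strand and per mate, per the file headers, whose command holds no option to count reads with several alignments. Per the submitters' processing notes, FastQC, Trimmomatic and STAR were used with mm10, and the conflict of builds was not resolved. Reads that fit other loci or overlapping genes equally well may therefore be missing, which could lower levels of genes with pseudogenes. Coordinates of genes are those of the deposited table, and exon lengths its own. Symbols were matched by gene ID (52073 of 56691, the rest holding 0.327% to 1.809% of reads). Of 2 IDs with the symbol Aldoa, the one with the most reads was used. Exon overlaps and shared 75-base stretches came from GENCODE vM21.

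Counts were filtered with filterByExpr, scaled by TMM and tested with the quasi-likelihood F test of edgeR 4.0.16 (robust, two-sided) in R 4.3.3, with Benjamini-Hochberg adjustment over 19912 genes and a threshold of 0.05. The test was first tried on simulated counts with few changed genes and no outlying library. That setting is unlike these data, so the trial does not bear on the calls given here. Depth was 49802305 to 147747191 reads. Same-group libraries differed beyond sampling noise (chi-square per degree of freedom 22.9 to 420), so none was a copy of the reads of another. This cannot tell whether libraries came from separate animals. Isoform shares, levels per kilobase and promoter motifs were described without a test. Protein comparisons between isoforms were not made here. Members and lists were chosen with earlier results of these data known, and counts over them are descriptions.

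Named are the 34 genes, Ogt as the check of labels, and up to 4 genes of each neighbouring list with the smallest p. Other genes are said to be named after their values were seen. Other settings tried were scaling by RLE or upper quartile, testing without a filter or with a stricter one (at least 1 CPM in 4 libraries), DESeq2 1.42.0, limma 3.58.1 voom with quality weights, the replicate number as a block, and leaving out each library or both numbered 3.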

Additional observations from a re-analysis of the deposited data

Results flagged for a closer look

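Single libraries far from the other 3 of their group were looked for with Dixon's test in 128 groups of 4 values, and 22 were found (10 of 68 for levels of the 34 genes). Chance gives about 1 in 20. All 22 are libraries numbered 3.

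In control replicate 3 the level was high for Slc2a1 (194.3 CPM), Slc2a3 (179.1 CPM), Gpi1 (1253 CPM) and Slc16a3 (7.038 CPM). It was low there for Pgam1 (204.6 CPM), Pdha1 (109.6 CPM) and Pdk1 (37.1 CPM). In knockdown replicate 3 it was high for Slc16a1 (115.8 CPM) and low for Pfkfb3 (59.22 CPM) and Pdk2 (76.42 CPM).

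Isoform shares stood apart in control replicate 3 for Slc2a1 (69.15%) and Slc2a3 (30.85%), Pfkl (12.66%) and Pfkm (75.84%), Pfkfb4 (20.25%), Aldoa (77.51%) and Aldoc (22.49%), and Slc16a1 (83.76%) and Slc16a3 (10.36%). Shares within a family mirror each other and are not separate signs. The share of Pdk2 stood apart in knockdown replicate 3 (52.82%). Control replicate 3 also stood apart in the summed markers of endothelium (1180 CPM) and of pericytes and vascular muscle (564.6 CPM).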

How the results depend on the processing

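Counts of called genes moved most with voom, with the replicate block and without both libraries numbered 3. Of all genes, 2659 rose and 3009 fell. With voom these were 5229 and 4979, with both libraries numbered 3 left out 4805 and 4760, and with 1 library left out 1684 to 3723 and 2140 to 3475. Of the 34 genes, 5 rose with voom and 5 without both libraries numbered 3, and with 1 library left out 1 to 4 rose and 10 to 14 fell. Of the neighbouring lists, 30 rose with voom and 30 without both libraries numbered 3.

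The replicate numbers 3, 4 and 5 occur in both groups. Deviations of same-numbered libraries correlated at 0.104 (replicate 3), 0.099 (replicate 4) and 0.042 (replicate 5). The values of replicates 3 and 4 were the highest of all pairs of a control with a knockdown library. Control replicate 5 correlated about equally with knockdown replicate 4 (0.044). The main test did not take the numbers as pairs, and whether same-numbered libraries share a batch was not tested. With the replicate block 480 genes rose and 778 fell, among them 1 and 5 of the 34 genes (Slc16a1 rose, and Aldoa, Eno2, Pkm, Pdhb and Pdha1 fell), and 4 and 12 of the neighbouring lists.

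The log2 fold change of Slc2a1 turned from -0.34 to 0.62 with voom and 0.68 without both libraries numbered 3, and with 1 library left out it ranged from -0.59 to 0.54 (without control replicate 3). Values near 0 of Pfkl, Ldha, Slc16a7, Mpc1 and Pcx also changed sign under some alternatives, without passing the test. Aldoa, Eno2, Pkm, Pdhb and Slc16a1 kept their calls under all 16 alternatives. Other scalings moved the median of all genes by at most 0.09. With upper quartile scaling 11 of the 34 genes fell and 4 rose. There Gpi1, Ldhb and Mpc2 lost their calls (edgeR adjusted p = 0.0875, 0.064 and 0.0504) and Pfkfb4 gained a call (0.0449). Without a filter Hk2 lost its call (edgeR adjusted p = 0.0793). Where single libraries decide a call, the values stand with the gene in the report. Labels name no separate animals, 4 libraries a group limit the precision, and depth was not limiting for the 34 genes, all above the floor.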
